A study of Mus musculus with 12 samples.

Results

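Splicing factor genes were followed in CT26 cells, a mouse colon carcinoma line. The 59 genes are the protein-coding genes of the deposited expression table whose symbol begins with Srsf and a digit, with Hnrnp, Snrp, Sf3a or Sf3b, or with Lsm and a digit. They make up 59 of the 12584 genes of the table and 59 of its 10449 protein-coding genes. By symbol, 10 belong to the SR family, 18 to the hnRNP family, 11 to the Snrp group, 9 to the SF3 group and 11 to the LSm family. All 59 passed the filter on low values, which asked for at least 1 FPKM (fragments per kilobase of gene and mega-reads of library) in at least 3 libraries. Snrpn had been fixed by name but was not analysed here.

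Introns are removed from a pre-mRNA by the spliceosome, which is built on the pre-mRNA from small nuclear ribonucleoproteins (snRNPs) and many other proteins. SR proteins bind exonic RNA and help splice sites to be chosen, while hnRNP proteins coat nascent RNA and often keep sites from being used. The snRNPs are built around rings of Sm proteins, encoded by Snrp genes, or of the related LSm proteins, and the SF3A and SF3B complexes belong to the snRNP that binds the branch point. SR and hnRNP genes are also known for regulating their own transcripts through exons that lead to decay of the message.

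The 12 libraries came from cells treated for 24 h with NP-D@MP, NP-D@M, NP@M or PBS (buffer), with 3 libraries per treatment. The labels give no wording for the abbreviations. The series title speaks of a nanodrug against CDKs (cyclin-dependent kinases) in a coat of engineered cancer cell membrane, for use with an antibody to PD-L1. The same cell line underlies every group, so no group stands for normal colon or for a whole tumour. No label tells whether the libraries of a treatment are separate cultures, and the p-values below measure no more than the spread of these libraries, which could be technical. Both preparations with a D in their name are called preparations with D here.

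From the table, 12.8 to 15.7 M reads (M for mega) could be recovered for a library. The library sizes the authors had divided by were 7.13 to 8.40 M reads with D and 28.2 to 31.1 M reads without D, that is 0.533 to 0.565 times the reads in the table with D and 1.95 to 2.02 times without D. Scaling to the reads in the table instead moved the median log2 change of all 10101 genes tested from -0.19 to -1.46 between NP-D@M and NP@M cells. Changes are therefore given in the authors' scaling, with the value in the other scaling beside each named change whose direction it turned. Mitochondrially encoded genes took 7.41 to 14.4% of the reads with D and 3.30 to 4.2% without it, and ribosomal protein genes took 13.2 to 15.3% with D and 5.69 to 6.46% without it. Of 8 colon epithelium markers Krt18 and Krt20 were in the table, with a summed level of 73.0 to 91.1 FPKM with D and 15.1 to 18.7 FPKM without it, but the pair went opposite ways: Krt20 averaged 80.4 FPKM with NP-D@MP and 78.0 FPKM with NP-D@M, against 8.67 FPKM with NP@M and 9.27 FPKM with PBS, and Krt18 averaged 4.19 FPKM with NP-D@MP and 4.46 FPKM with NP-D@M, against 6.89 FPKM with NP@M and 8.16 FPKM with PBS. Of 6 fibroblast markers 4 were in the table, summing to 10.5 to 15 FPKM with D and 69.1 to 84.9 FPKM without it, mostly Col1a2, while Dcn averaged 0.264 FPKM with NP-D@MP and 0.355 FPKM with NP-D@M, against 0.0544 FPKM with NP@M and 0.0364 FPKM with PBS. Of 6 myeloid markers 3 summed to 9.31 to 21.3 FPKM with D and 2.57 to 3.25 FPKM without it, mostly Cd68, which averaged 14.9 FPKM with NP-D@MP and 12.5 FPKM with NP-D@M, against 2.38 FPKM with NP@M and 2.11 FPKM with PBS. Among these 3, the pan-leukocyte gene Ptprc was listed at 0 in NP@M and PBS libraries and averaged at most 0.0226 FPKM with D. None of 4 T cell and none of 6 retina markers was in the table, and the endothelial marker Pecam1 stayed at or below 0.191 FPKM. The part of these shares and markers in the results was not tested. In bulk RNA, fewer cells of a type and less RNA per cell cannot be told apart.

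One library stood apart from its label. N9, labelled NP-D@M, differed from N7 and N8 of the same label by a chi-square per degree of freedom of 48.0 and 62.6 over the recovered reads, and from the NP-D@MP libraries N10, N11 and N12 by 12.3, 8.78 and 9.76. Its mitochondrial share of 9.06% and ribosomal protein share of 15.3% also lay in the range of the NP-D@MP libraries (7.41 to 10.2% and 14.7 to 15.2%) or next to it, while N7 and N8 had 13.2 and 14.4% mitochondrial and 13.9 and 13.2% ribosomal protein reads. Results that use the NP-D@M group are given with N9 and, where it matters, without it.

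The reads of the 59 genes made up 0.513 to 0.525% of the reads in NP-D@MP libraries and 0.421 to 0.522% in NP-D@M libraries, against 1.18 to 1.24% in NP@M libraries and 1.17 to 1.24% in PBS libraries. This share does not depend on the library size that was used, and the groups with and without D did not overlap. A lower share of reads was, however, common among genes. With table reads as the scale, the median gene of all 10101 stood at -1.46 on the log2 scale for NP-D@M against NP@M. The median member stood at -1.84. The lower share is therefore not in itself particular to splicing factors. In the authors' scaling the summed FPKM of the members was instead higher with D. Between NP-D@M and NP@M cells, 24 members rose and 29 fell (limma on log2(FPKM + 1), adjusted p under 0.05), and 6 passed in neither direction. Among all genes tested 41.8% rose and 47.7% fell in that comparison. The 24 and 29 of 59 are near this background and so say nothing about splicing factors as a whole. The background depends on the filter on low values. Of the 53 members with a mean of at least 5 FPKM, 23 rose and 25 fell, where 64.6% and 27.9% of 4944 genes did. That mean is over all 12 libraries, so a gene can pass by its level with D. Over all 59 members, 23 rose and 29 fell without N9, against a background of 40.7% and 47%. In reads scaled to the table, 9 rose and 45 fell, against 17.5% and 70.5% of all genes. Under quantile normalization 13 rose and 36 fell, against 37.7% and 41.8% of all genes. A total of 9 of 59 members rose and 28 fell under all 4 scalings tried (the authors', the table reads, a common median ratio and quantile normalization), where 15.8% of all genes rose and 35.8% fell. Those that rose were Lsm4, Lsm5, Lsm6, Lsm7, Sf3b5, Snrpd2, Snrpd3, Snrpf and Snrpg. NP-D@M and NP@M libraries did not overlap for most members, so a lack of overlap is not particular to the genes described below. For some of those genes it was also a condition for being named.

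What differed was the balance between the families. Relative to the median change of all genes, the median SR gene was at -1.21 on the log2 scale and the median Snrp gene at 2.16, while the hnRNP, SF3 and LSm medians were at 0.04, -0.22 and -0.01. In the scaling to table reads these 5 values were -1.66, 1.72, -0.45, -0.67 and -0.17. In the authors' scaling the median of all genes was -0.19 over those tested and 1.06 over those with a mean of at least 5 FPKM. The values relative to it thus depend on the filter. Within a library, without reference to its size, SR genes held 2.63 to 2.75% of the summed FPKM of the members in NP-D@MP libraries and 2.83 to 3.32% in NP-D@M libraries, against 16.5 to 18.5% in NP@M libraries and 14.4 to 16.3% in PBS libraries. LSm genes held 28.5 to 31.1% with NP-D@MP and 23.6 to 29.3% with NP-D@M, against 7.20 to 7.72% in NP@M libraries and 7.83 to 8.81% in PBS libraries. The Snrp share was 32.7 to 36.1% with NP-D@MP and 35.8 to 38.1% with NP-D@M, against 16.4 to 18.8% with NP@M and 17.3 to 18.9% with PBS. The hnRNP share was 27.3 to 27.9% with NP-D@MP and 25.1 to 30.6% with NP-D@M, against 45.4 to 47.4% with NP@M and 44.8 to 47.3% with PBS. The SF3 share was 5.05 to 5.72% with NP-D@MP and 5.17 to 6.71% with NP-D@M, against 11 to 12.1% with NP@M and 11.3 to 12.5% with PBS. SR, hnRNP and SF3 genes thus held less, and Snrp genes more, of the members' summed level with D, and no library crossed over. That sum was itself higher with D in the authors' scaling. It was 3639 to 3766 FPKM with NP-D@MP and 2472 to 3736 FPKM with NP-D@M, against 1410 to 1468 FPKM with NP@M and 1472 to 1516 FPKM with PBS. A smaller share is therefore not in itself a lower level. The larger LSm share came from Lsm4: with Lsm4 left out of the sums, LSm genes held 5.98 to 6.47% with NP-D@MP and 6.56 to 7.77% with NP-D@M, against 5.28 to 5.75% with NP@M and 5.92 to 6.29% with PBS, so that NP-D@MP and PBS libraries overlapped. The Snrp share without Lsm4 was 44.6 to 47.4% with NP-D@MP and 43.2 to 49.6% with NP-D@M, against 16.7 to 19.2% with NP@M and 17.6 to 19.4% with PBS.

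**Figure D1:**
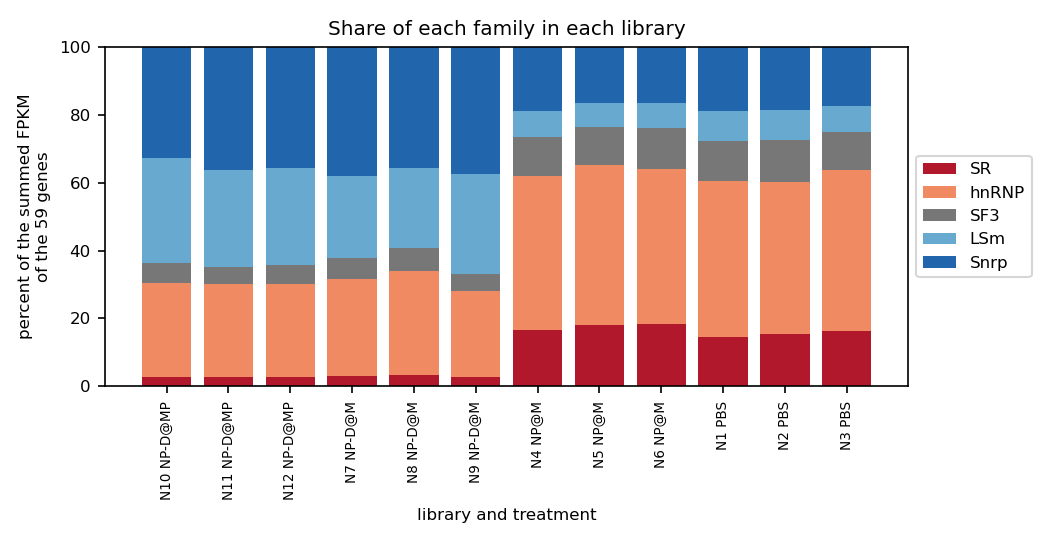
Percent of the summed FPKM of the 59 members (vertical axis) held by each of the 5 families, stacked for each of the 12 libraries, named below with their treatment. The SR band is 2.63 to 3.32% of the bar in the 6 libraries with D and 14.4 to 18.5% in the 6 without it.

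The sequence just before a RefSeq start of transcription is shown for 4 member genes. It sets a pair whose level fell with D, Srsf2 and Srsf7, beside a pair that rose, Lsm5 and Hnrnpa2b1. The rise of Hnrnpa2b1 turned into -0.29 in the scaling to table reads and -0.65 under quantile normalization. Each run is the 100 bases before the RefSeq start of transcription, 5′ to 3′ on the coding strand, from GRCm38.p6: chr11:116853095-116853194, chr17:80207306-80207405, chr6:56704700-56704799 and chr6:51469846-51469945, all on the minus strand. The deposited coordinates of Lsm5 and Hnrnpa2b1 reach to 56704710 and 51469894, so part of the run of each lies inside the gene. Capitals mark a CCAAT box (CCAAT or, on the other strand, ATTGG) or a TATA box (TATAAA).
Srsf2 promoter: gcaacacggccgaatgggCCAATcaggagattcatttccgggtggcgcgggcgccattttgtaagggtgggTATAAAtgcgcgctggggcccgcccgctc
Srsf7 promoter: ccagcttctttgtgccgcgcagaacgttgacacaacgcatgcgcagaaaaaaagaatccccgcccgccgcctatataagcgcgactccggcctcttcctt
Lsm5 promoter: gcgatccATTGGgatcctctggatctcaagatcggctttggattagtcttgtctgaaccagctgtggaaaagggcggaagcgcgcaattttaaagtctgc
Hnrnpa2b1 promoter: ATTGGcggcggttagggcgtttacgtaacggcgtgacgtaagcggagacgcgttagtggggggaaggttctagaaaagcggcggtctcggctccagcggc
Over the 250 bases upstream of the start, on both strands, CCAAT was found in 24 of the 51 members that had a promoter in the RefSeq table (47.1%) and in 36.9% of 8219 promoters. It was in 11 of 20 members that rose and in 11 of 26 that fell. TATAAA was found in 5 members (9.80%, against 6.24%), Hnrnpm, Sf3b3, Snrpa, Srsf2 and Srsf3. The ETS motif CCGGAAG was found in 15 members (29.4%, against 15.3%), 5 of those that rose and 8 of those that fell. The cyclic AMP response element TGACGTCA was in 2 members, the E-box CACGTG in 3, the YY1 motif AAGATGGC in 1 and the NRF1 motif in none of the 51. A match is a string of letters and not a site of binding.

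SR genes: 9 of 10 fell and 1 rose between NP-D@M and NP@M cells, where 47.7% of all genes fell, and 8 of 10 fell under all 4 scalings, where 35.8% of all genes did. Srsf2 (chr11:116849901-116853094), a factor for exon inclusion, had 11.4, 10.4 and 12.9 FPKM with NP-D@MP and 8.78, 5.13 and 11 FPKM with NP-D@M, against 40.3, 47.5 and 45.9 FPKM with NP@M and 36.3, 42.2 and 43.5 FPKM with PBS. All 6 libraries with D lay below all 6 without D. It fell by 2.34 on the log2(FPKM + 1) scale, 5.38-fold lower by group means (SE 0.20, limma adjusted p = 4.49e-07). Srsf7 (chr17:80200089-80207305), a shuttling SR protein that also acts in mRNA export, had 6.92, 7.70 and 8.67 FPKM with NP-D@MP and 3.76, 6.65 and 7.32 FPKM with NP-D@M, against 31.9, 37.2 and 39.2 FPKM with NP@M and 32.4, 35.6 and 32.7 FPKM with PBS. Its lowest value was in N7, and the groups with and without D did not overlap. It fell by 2.46 on the log2 scale, 6.10-fold (SE 0.18, limma adjusted p = 1.20e-07).

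Srsf5 (chr12:80945504-80950507) had the lowest log2 change of the family. Its level was 4.90, 5.89 and 6.22 FPKM with NP-D@MP and 4.78, 5.01 and 5.77 FPKM with NP-D@M, against 31.9, 34.1 and 34.9 FPKM with NP@M and 29.8, 30.2 and 34.7 FPKM with PBS. The libraries with D were close to each other, and the gene fell by 2.49 on the log2 scale, 6.48-fold (SE 0.11, limma adjusted p = 1.16e-09). Srsf1 (chr11:88047373-88053755), a prototype of the family, had 7.66, 8.11 and 7.02 FPKM with NP-D@MP and 4.67, 6.40 and 7.02 FPKM with NP-D@M, against 26.8, 32.1 and 29.8 FPKM with NP@M and 26.5, 24.4 and 29.6 FPKM with PBS. It fell by 2.13 on the log2 scale (4.90-fold; SE 0.13, limma adjusted p = 2.94e-08), with no overlap between libraries with and without D. Srsf3 (chr17:29032628-29043373), the smallest classical SR protein, averaged 8.38 ± 1.03 FPKM in NP-D@M cells and 22.5 ± 1.5 FPKM in NP@M cells (SD, n = 3) and fell by 1.33 (SE 0.10, limma adjusted p = 1.99e-07). Within a library Srsf3 was 0.847 to 1.07 times Srsf7 with NP-D@MP and 1.15 to 1.94 times with NP-D@M, against 0.572 to 0.662 times with NP@M and 0.526 to 0.645 times with PBS, so that Srsf7 was lower relative to Srsf3 with D. Srsf6, Srsf10 and Srsf11 fell by 1.47, 0.77 and 1.34 on the log2 scale.

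Srsf4 and Srsf9 departed from the rest. Srsf4, the lowest of the family, averaged 1.15 ± 0.630 FPKM in NP-D@M cells and 2.81 ± 0.10 FPKM in NP@M cells (SD, n = 3) and fell by 0.87 (SE 0.25, limma adjusted p = 0.00675), but it was not called under quantile normalization, and 43.0% of its exonic bases overlap Gm12992 on the other strand. Srsf9 (chr5:115327177-115333080), a short SR protein, had 34.5, 36.7 and 29.4 FPKM with NP-D@MP and 27.0, 21.7 and 38.2 FPKM with NP-D@M, against 16.8, 16.2 and 13.9 FPKM with NP@M and 18.6, 20.4 and 18.7 FPKM with PBS. It rose by 0.81 on the log2 scale (1.85-fold; SE 0.17, limma adjusted p = 8.26e-04), and this turned into -0.94 in the scaling to table reads and -0.21 under quantile normalization. The ratio of Srsf1 to Srsf9, which needs no scaling between libraries, was 0.221 to 0.239 with NP-D@MP and 0.173 to 0.295 with NP-D@M, against 1.59 to 2.14 with NP@M and 1.19 to 1.58 with PBS. In FPKM, Srsf1 was thus above Srsf9 in every library without D and below it in every library with D. FPKM here divides by summed exon lengths of 5710 bases for Srsf1 and 1653 for Srsf9, beside main annotated transcripts of 5362 and 1162 bases. Which gene of the pair stands higher depends on these lengths, while the change of the ratio between libraries does not. Srsf9 was chosen for this account after its values were seen.

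**Figure D2:**
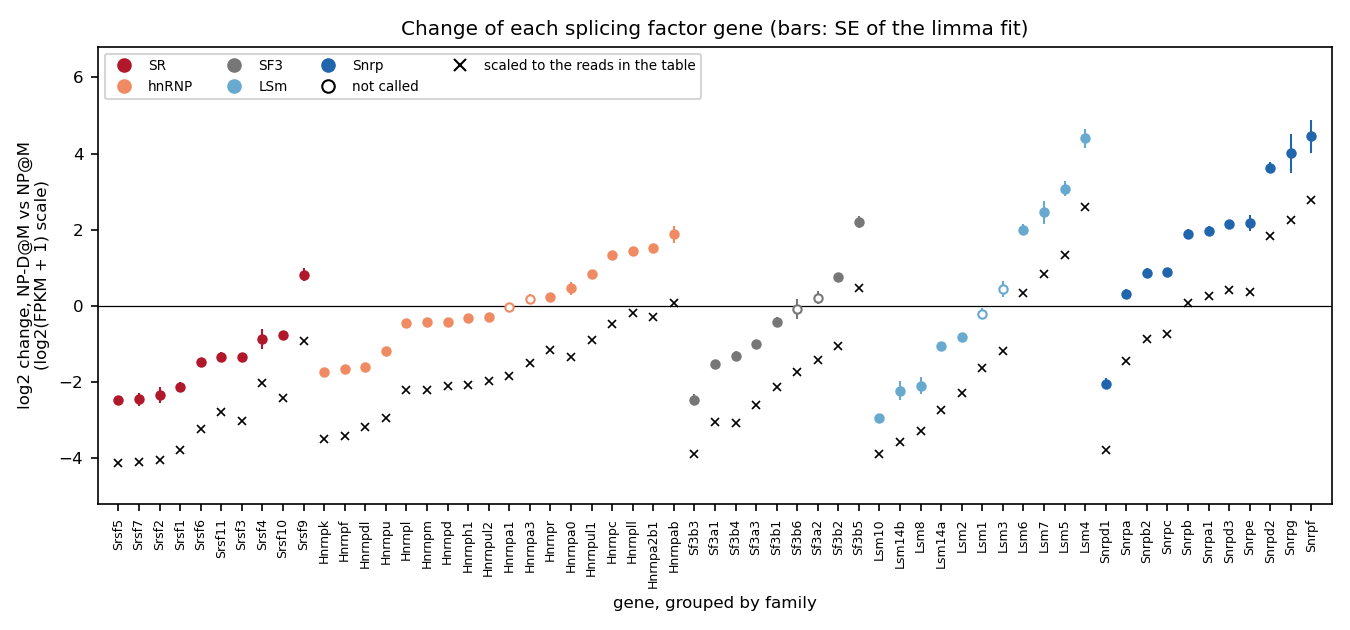
Log2 change of each of the 59 members between NP-D@M and NP@M cells (vertical axis, log2(FPKM + 1) scale), grouped by family and sorted within it. Circles are the authors' scaling with the SE of the limma fit, open circles were not called, and crosses are the same change in reads scaled to the table, which puts 45 members below 0 as called falls and turns the sign of several circles above 0.

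Of the 18 hnRNP genes 7 rose and 9 fell between NP-D@M and NP@M cells, near the 41.8% and 47.7% of all genes, and 2 passed in neither direction. None rose and 16 fell in the scaling to table reads, where 70.5% of all genes fell. Those that fell did so under all 4 scalings. None of the 7 that rose did: in the scaling to table reads each had a log2 change below 0 or was not called. Hnrnpk (chr13:58391142-58403343), a poly(C)-binding protein, had 19.4, 20.9 and 21.5 FPKM with NP-D@MP and 22.2, 18.1 and 17.0 FPKM with NP-D@M, against 64.8, 71.3 and 62.0 FPKM with NP@M and 67.1, 63.3 and 68.7 FPKM with PBS. The libraries with D were all lower, and it fell by 1.74 on the log2 scale (3.46-fold; SE 0.11, limma adjusted p = 2.31e-08). Hnrnpu (chr1:178321108-178337797), a nuclear scaffold and RNA-binding protein, averaged 17.6 ± 1.40 FPKM in NP-D@M cells and 41.6 ± 3.02 FPKM in NP@M cells (SD, n = 3) and fell by 1.20 (SE 0.10, limma adjusted p = 2.34e-07). Hnrnpf and Hnrnpdl fell by 1.65 and 1.61. For Hnrnpf, 61.9% of the 50-base words of its exons recur in other genes, mainly a pseudogene, so its value is uncertain. Hnrnpd, Hnrnph1, Hnrnpl, Hnrnpm and Hnrnpul2 fell by 0.29 to 0.44 on the log2 scale.

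Hnrnpa2b1 (chr6:51460932-51469894), which binds pre-mRNA and takes part in RNA transport, had 186, 197 and 191 FPKM with NP-D@MP and 175, 174 and 176 FPKM with NP-D@M, against 56.0, 65.9 and 59.2 FPKM with NP@M and 55.7, 52.5 and 59.4 FPKM with PBS. It rose by 1.52 on the log2 scale (2.90-fold; SE 0.09, limma adjusted p = 1.25e-08), which turned into -0.29 in the scaling to table reads and -0.65 under quantile normalization. Hnrnpc (chr14:52073377-52104028), which binds uridine tracts, averaged 104 ± 6.92 FPKM in NP-D@M cells and 40.4 ± 1.10 FPKM in NP@M cells (SD, n = 3) and rose by 1.34 (SE 0.09, limma adjusted p = 3.59e-08), turning into -0.47 in the scaling to table reads and -0.57 under quantile normalization. Both stood above Hnrnpk in libraries with D: the ratio of Hnrnpk to Hnrnpa2b1 was 0.104 to 0.113 with NP-D@MP and 0.0967 to 0.126 with NP-D@M, against 1.05 to 1.16 with NP@M and 1.16 to 1.21 with PBS. Hnrnpa1 (chr15:103240432-103246692), a classical splicing repressor, had 96.4, 103 and 95.6 FPKM with NP-D@MP and 87.4, 86.9 and 87.1 FPKM with NP-D@M, against 85.5, 95.7 and 84.8 FPKM with NP@M and 101, 98.4 and 97.4 FPKM with PBS. Its log2 change was -0.02 (SE 0.08, limma adjusted p = 0.788) and it was not called, while the scaling to table reads gave a called fall of 1.84. Of its 50-base words, 28.2% recur in other genes. The paralogs Hnrnpdl and Hnrnpd also parted: their ratio was 0.495 to 0.507 with NP-D@MP and 0.406 to 0.445 with NP-D@M, against 1.07 to 1.12 with NP@M and 0.938 to 1.16 with PBS.

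The hnRNP genes Hnrnpa0, Hnrnpab, Hnrnpll, Hnrnpr and Hnrnpul1 completed the rises, with log2 changes of 0.46, 1.88, 1.45, 0.23 and 0.85 in the authors' scaling and -1.35, 0.07, -0.20, -1.16 and -0.90 in the scaling to table reads, and quantile normalization also turned Hnrnpa0, Hnrnpab and Hnrnpul1, to -1.59, -0.11 and -0.09. Hnrnpa3 was not called, with a log2 change of 0.19, while in the scaling to table reads it had a called change of -1.49 (limma adjusted p = 6.76e-07). Under quantile normalization the log2 change of Hnrnpa3 was -0.27. Without N9, 7 hnRNP genes rose and 8 fell, where 40.7% and 47% of all genes did, but not with the same members. Hnrnpa0 at 0.21 (limma adjusted p = 0.0531) and Hnrnpul2 at -0.26 (limma adjusted p = 0.0534) were then not called, and Hnrnpa3 was called at 0.31 (limma adjusted p = 0.0467).

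The Snrp genes rose in 10 of 11 cases between NP-D@M and NP@M cells and fell in 1, Snrpd1, where 41.8% and 47.7% of all genes did. In the scaling to table reads 4 rose and 4 fell, and under quantile normalization 6 rose and 3 fell. The Sm ring is made of 7 proteins, and its genes moved apart. Snrpd2 (chr7:19149722-19153542) had 253, 265 and 257 FPKM with NP-D@MP and 223, 182 and 279 FPKM with NP-D@M, against 19.0, 17.0 and 15.7 FPKM with NP@M and 20.3, 19.2 and 17.7 FPKM with PBS. Every library with D was above every library without D, and the gene rose by 3.63 on the log2 scale, 13.2-fold by means (SE 0.14, limma adjusted p = 4.88e-10). Snrpd1, its neighbour in the ring, had 12, 14.2 and 12.2 FPKM with NP-D@MP and 15.4, 17.8 and 10.6 FPKM with NP-D@M, against 64.3, 59.6 and 62.5 FPKM with NP@M and 57.9, 59.5 and 60.7 FPKM with PBS. It fell by 2.04 on the log2 scale (4.26-fold; SE 0.15, limma adjusted p = 1.06e-07), again with no overlap. The ratio of Snrpd1 to Snrpd2 was 0.0474 to 0.0534 with NP-D@MP and 0.0381 to 0.0979 with NP-D@M, against 3.38 to 3.99 with NP@M and 2.86 to 3.44 with PBS. In FPKM, Snrpd1 was therefore the higher of the pair in all 6 libraries without D and the lower in all 6 with D. The change of the ratio holds whatever the scaling between libraries. FPKM here divides by summed exon lengths of 837 bases for Snrpd1 and 2618 for Snrpd2. In GENCODE M21 the exons cover 2052 and 2618 bases, and the main transcripts have 858 and 1420 bases. Which gene of the pair stands higher depends on these lengths, while the change of the ratio does not.

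Snrpg (chr6:86371304-86379328), another ring gene, had 197, 263 and 265 FPKM with NP-D@MP and 242, 160.2 and 298 FPKM with NP-D@M, against 24.1, 22.3 and 3.83 FPKM with NP@M and 27.5, 25.4 and 22.4 FPKM with PBS. N6 was far below the other NP@M libraries. The rise of 4.01 on the log2 scale (SE 0.50, limma adjusted p = 1.27e-05) was 3.23 without N6 (limma adjusted p = 3.47e-07). Snrpf (chr10:93583029-93589706) had 203, 233 and 191 FPKM with NP-D@MP and 89.8, 53.8 and 270.5 FPKM with NP-D@M, against 4.47, 3.76 and 3.96 FPKM with NP@M and 12.6, 8.64 and 6.64 FPKM with PBS. It rose by 4.45 on the log2 scale, 34.0-fold by means (SE 0.44, limma adjusted p = 1.63e-06), and by 3.8 without N9 (limma adjusted p = 1.18e-07), where the NP-D@M mean was 71.8 in place of 138 FPKM. Its value is uncertain, because 85.4% of its exonic bases overlap genes on the other strand, mainly Ccdc38, and whether strand was used in counting is not stated in the sources used here. Snrpb (chr2:130171414-130179403) averaged 241 ± 42.5 FPKM in NP-D@M cells and 64.3 ± 5.07 FPKM in NP@M cells (SD, n = 3) and rose by 1.88 (SE 0.13, limma adjusted p = 5.79e-08), with 0.06 and no call in the scaling to table reads and -0.42 under quantile normalization. Snrpe (chr1:133603871-133610291) averaged 137 ± 15.9 FPKM in NP-D@M cells and 29.4 ± 1.81 FPKM in NP@M cells and rose by 2.18 (SE 0.21, limma adjusted p = 1.22e-06), with 0.37 and no call in the scaling to table reads, and Snrpd3 rose by 2.15. Within a library the highest ring gene was 20.3 to 27.1 times the lowest with NP-D@MP and 11.7 to 28.0 times with NP-D@M, against 15.6 to 16.7 times with NP@M and 7.48 to 11.2 times with PBS.

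The Snrp genes outside the ring encode proteins specific to the U1 and U2 snRNPs. Snrpa (chr7:27187005-27196271), of the U1 snRNP, which binds the 5′ splice site, averaged 23.1 ± 3.64 FPKM in NP-D@M cells and 18.3 ± 1.74 FPKM in NP@M cells (SD, n = 3) and rose by 0.31 on the log2 scale (SE 0.12, limma adjusted p = 0.0246), turning into -1.44 in the scaling to table reads and -0.76 under quantile normalization. Without N9 the Snrpa change was 0.19 (limma adjusted p = 0.0997) and was not called. Snrpc, of the same snRNP, rose by 0.89 and had -0.74 in the scaling to table reads. Snrpa1 and Snrpb2, partners in the U2 snRNP, rose by 1.97 and 0.86, with 0.26 and -0.88 in the scaling to table reads, and Snrpb2 was not called under quantile normalization.

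**Figure D3:**
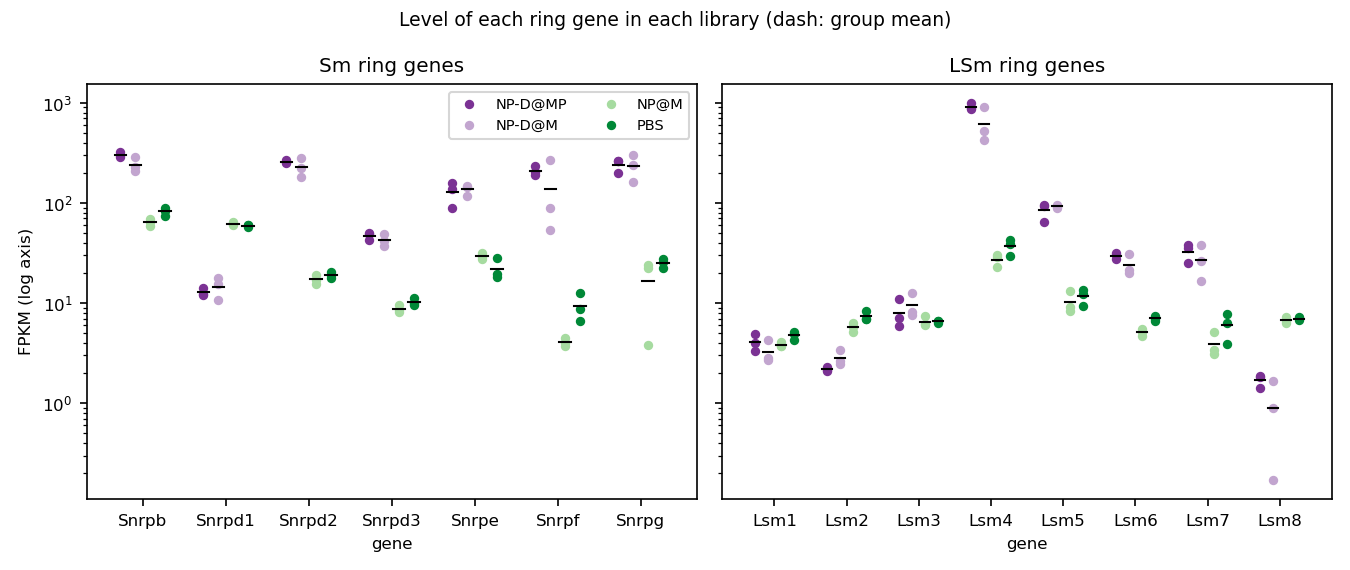
FPKM on a log axis (vertical) of the 7 Sm ring genes, left, and the 8 LSm ring genes, right, with a point per library in the order NP-D@MP, NP-D@M, NP@M and PBS and a dash at each group mean. Snrpd1 and Lsm8 lie lower, and Snrpd2 and Lsm4 higher, in the libraries with D, while Snrpf and Lsm8 spread widely among the NP-D@M libraries.

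LSm proteins 1 to 8 form rings that bind the ends of the U6 snRNA in the nucleus or of mRNAs in decay bodies, with Lsm8 as the nuclear and Lsm1 as the cytoplasmic subunit. Of the 11 LSm genes 4 rose, 5 fell and 2 passed in neither direction between NP-D@M and NP@M cells, and all 9 calls held under the 4 scalings. Among all genes tested 41.8% rose and 47.7% fell, and in the scaling to table reads 4 LSm genes rose and 7 fell, where 17.5% and 70.5% of all genes did. Lsm4 (chr8:70673248-70678752) had 988, 895 and 863 FPKM with NP-D@MP and 521, 425 and 911 FPKM with NP-D@M, against 29.9, 22.7 and 28.6 FPKM with NP@M and 39.0, 42.4 and 29.8 FPKM with PBS. It rose by 4.40 on the log2 scale, 22.9-fold by means (SE 0.24, limma adjusted p = 8.45e-09), and its level in NP-D@MP libraries was the highest of the 59 members. Lsm5 (chr6:56701063-56704710) had 64.8, 92.2 and 96.0 FPKM with NP-D@MP and 96.3, 91.4 and 89.8 FPKM with NP-D@M, against 9.14, 13.1 and 8.41 FPKM with NP@M and 13.5, 9.35 and 12.2 FPKM with PBS. The NP-D@M libraries were close to each other, and it rose by 3.08 (9.06-fold; SE 0.19, limma adjusted p = 2.19e-08). Lsm7 (chr10:80852821-80855209) had 37.7, 35.3 and 25.2 FPKM with NP-D@MP and 26.3, 16.4 and 37.8 FPKM with NP-D@M, against 5.15, 3.12 and 3.42 FPKM with NP@M and 7.83, 6.29 and 3.93 FPKM with PBS. It rose by 2.46 (SE 0.30, limma adjusted p = 9.35e-06), and Lsm6 by 2.0.

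Other ring genes moved the opposite way. Lsm2 (chr17:34981862-34985891) had 2.16, 2.30 and 2.09 FPKM with NP-D@MP and 3.40, 2.45 and 2.67 FPKM with NP-D@M, against 6.39, 5.84 and 5.16 FPKM with NP@M and 6.96, 8.42 and 6.92 FPKM with PBS. It fell by 0.83 on the log2 scale (2.04-fold; SE 0.12, limma adjusted p = 3.35e-05), with libraries with D all below those without. Lsm8, chosen after its values were seen, had 1.43, 1.82 and 1.87 FPKM with NP-D@MP and 0.170, 0.886 and 1.65 FPKM with NP-D@M, against 6.35, 7.23 and 6.62 FPKM with NP@M and 7.18, 6.73 and 7.09 FPKM with PBS. It fell by 2.10 (SE 0.22, limma adjusted p = 2.99e-06) and by 2.38 without N9, where its NP-D@M mean was 0.528 FPKM in place of 0.903. Lsm1 and Lsm3 were not called, with log2 changes of -0.20 and 0.45, while in the scaling to table reads both were called lower, at -1.63 and -1.18 (limma adjusted p = 9.56e-08 and 8.67e-05). Quantile normalization put Lsm1 at 0.23. Without N9, Lsm1 was called lower, at -0.37 (limma adjusted p = 0.0186). The ratio of Lsm8 to Lsm1 was 0.356 to 0.557 with NP-D@MP and 0.0605 to 0.385 with NP-D@M, against 1.57 to 1.94 with NP@M and 1.36 to 1.65 with PBS. In FPKM, the gene of the nuclear subunit was thus above that of the cytoplasmic one without D and below it with D in every library. The summed exon lengths used were 4199 bases for Lsm8 and 3093 for Lsm1, beside main annotated transcripts of 807 and 2663 bases. Which of them stands higher depends on these lengths, while the change of the ratio does not.

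Lsm10 (chr4:126096623-126098584) replaces an Sm protein in the snRNP that processes histone pre-mRNA. It was hardly detected with D: 1, 0 and 0 reads were recovered in the NP-D@MP libraries and 0, 0 and 1 in the NP-D@M libraries, against levels of 8.30, 6.8 and 6.28 FPKM with NP@M and 7.91, 9.61 and 7.38 FPKM with PBS. By summed reads over library size it was 160-fold lower in NP-D@M than in NP@M cells, with an exact 95% counting interval of 28.7 to 6343, and 149-fold lower in NP-D@MP cells (26.7 to 5900.2). These intervals cover counting error only. The limma change was -2.96 on the log2(FPKM + 1) scale (SE 0.12, limma adjusted p = 8.93e-10), which depends on the added 1. Lsm14b (chr2:180024987-180035465), an RNA granule protein, had 1.76, 2.23 and 3.05 FPKM with NP-D@MP and 0.535, 2.29 and 1.94 FPKM with NP-D@M, against 10.9, 9.89 and 10.7 FPKM with NP@M and 12.2, 13.5 and 11.2 FPKM with PBS. It fell by 2.22 (SE 0.24, limma adjusted p = 3.61e-06) and by 1.89 without N7, its lowest library. Its paralog Lsm14a fell by 1.07.

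Of the 9 SF3 genes 2 rose, 5 fell and 2 passed in neither direction between NP-D@M and NP@M cells, where 41.8% of all genes rose and 47.7% fell. In the scaling to table reads 1 rose and 8 fell, where 17.5% and 70.5% of all genes did, and the 5 that fell did so under all 4 scalings. A large and a small subunit of SF3B moved apart. Sf3b3 (chr8:110810239-110846787), a large scaffold subunit, had 2.11, 1.5 and 2.04 FPKM with NP-D@MP and 1.21, 2.08 and 2.07 FPKM with NP-D@M, against 13.4, 15.1 and 14.3 FPKM with NP@M and 15.1, 16.5 and 14.2 FPKM with PBS. It fell by 2.47 on the log2 scale (7.96-fold; SE 0.14, limma adjusted p = 1.15e-08), with no overlap between libraries with and without D. Sf3b5 (chr10:13005343-13009183), a small subunit that sits against it, had 60.3, 51.6 and 59.3 FPKM with NP-D@MP and 49.3, 34.2 and 52.9 FPKM with NP-D@M, against 9.43, 7.66 and 9.82 FPKM with NP@M and 9.44, 9.16 and 7.71 FPKM with PBS. It rose by 2.20 (5.07-fold; SE 0.16, limma adjusted p = 9.80e-08) and was the SF3 gene called higher under all 4 scalings. Sf3b1 (chr1:54985169-55027481), the subunit that clamps the branch point helix, had 9.39, 10.3 and 11.4 FPKM with NP-D@MP and 13.3, 15.5 and 10.7 FPKM with NP-D@M, against 16.5, 18.7 and 17.9 FPKM with NP@M and 13.1, 13.5 and 15.4 FPKM with PBS. It fell by 0.42 (SE 0.13, limma adjusted p = 0.00976), and N9 was below the other NP-D@M libraries. The ratio of Sf3b1 to Sf3b5 was 0.156 to 0.200 with NP-D@MP and 0.202 to 0.451 with NP-D@M, against 1.75 to 2.44 with NP@M and 1.39 to 1.99 with PBS. Sf3a1 (chr11:4160350-4182541), of the SF3A complex, averaged 3.10 ± 0.544 FPKM in NP-D@M cells and 10.8 ± 0.763 FPKM in NP@M cells (SD, n = 3) and fell by 1.53 (SE 0.12, limma adjusted p = 1.84e-07). Sf3a3 and Sf3b4 fell by 1.01 and 1.32. Sf3b2 rose by 0.76, turning into -1.05 in the scaling to table reads and -1.12 under quantile normalization, and Sf3a2 and Sf3b6 were not called, at 0.22 and -0.08. Both were called lower in the scaling to table reads, at -1.41 and -1.75 (limma adjusted p = 3.50e-06 and 1.74e-05).

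The second preparation with D was set against the same NP@M libraries and against PBS. These comparisons share libraries with the one above, so the values stand side by side. Between NP-D@MP and NP@M cells 25 members rose and 29 fell, where 43.5% of all genes rose and 47.3% fell, and in the scaling to table reads 11 rose and 45 fell, where 18.5% and 70% did. Under quantile normalization 14 rose and 36 fell, where 38% and 43.4% of all genes did. Between NP-D@MP and PBS cells 25 rose and 27 fell, where 43.2% and 47.3% of all genes did, and 8 and 44 did in the scaling to table reads, where 17.5% and 70.7% of all genes did. Under quantile normalization 13 rose and 38 fell, where 38% and 42.3% of all genes did. In the authors' scaling and in that to table reads these counts too are near the background. By family, 9 of 10 SR genes fell and 1 rose in both, and 10 of 11 Snrp genes rose and 1 fell in both, though in the scaling to table reads 5 Snrp genes rose and 4 fell. Srsf2 fell by 1.86 on the log2 scale against NP@M (limma adjusted p = 3.45e-06) and by 1.73 against PBS (limma adjusted p = 6.70e-06). Snrpd2 rose by 3.84 and 3.70, and Snrpd1 fell by 2.20 and 2.13. Lsm4 rose by 5.04 and 4.60, with 33.8-fold and 24.7-fold higher means. Sf3b3 fell by 2.41 and 2.5, and Sf3b5 rose by 2.55 and 2.57. Sf3a2 and Sf3b6, not called between NP-D@M and NP@M cells, had log2 changes of 0.68 and -0.64 between NP-D@MP and NP@M cells, where both were called, Sf3a2 with -1.03 in the scaling to table reads.

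**Figure D4:**
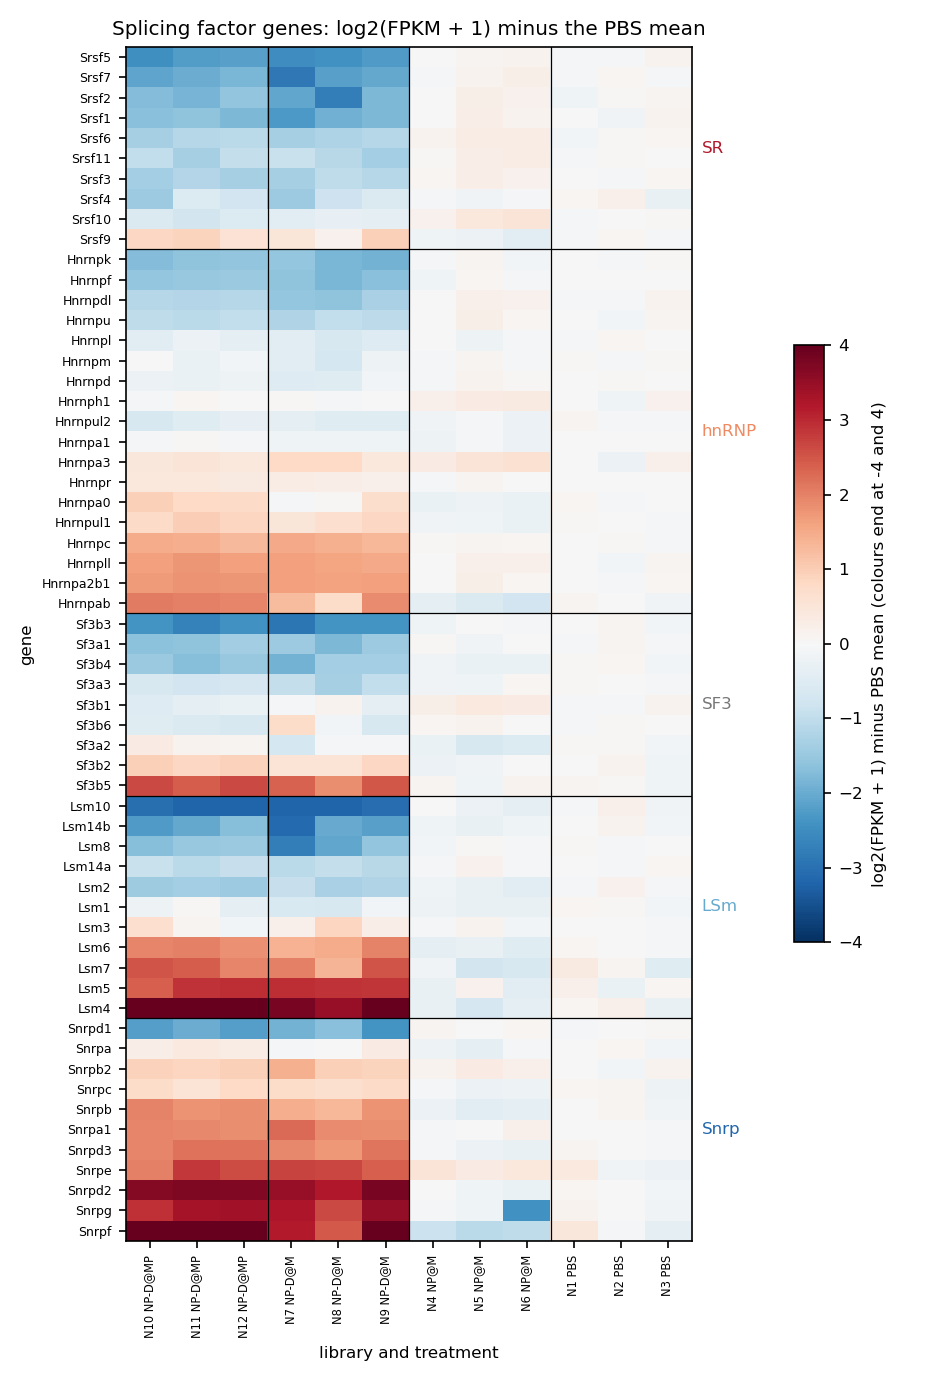
Level of each of the 59 members (rows, by family) in each of the 12 libraries (columns, with treatment), as log2(FPKM + 1) minus the mean of the 3 PBS libraries. Red is higher and blue lower, and colours end at 4 on either side. In the authors' scaling the 6 columns with D differ from the 6 without in most rows of every block, not only SR and Snrp. The Snrp rises are partly lost in the scaling to table reads.

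No member was called between NP-D@MP and NP-D@M cells in the limma fit of all libraries, where 0.0396% of all genes rose and 0.0099% fell. Of the 59, 18 had an unadjusted p under 0.05, the smallest adjusted p was 0.185, and limma voom on the recovered reads called 0 as well. Without N9, 11 rose and 3 fell, where 9.59% and 2.87% of all genes did, so this comparison rests on that library. The 14 were chosen by this result: Hnrnpa0, Hnrnpab, Hnrnpdl, Hnrnpm, Lsm4, Lsm6, Lsm8, Sf3a3, Snrpb, Snrpf and Srsf2 rose, and Sf3b1, Sf3b6 and Snrpd1 fell. Snrpf, with its uncertain counting, had a change of 1.57 on the log2 scale without N9 (limma adjusted p = 0.00566) and 0.92 with it (adjusted p = 0.317). Hnrnpa0 had 148, 131 and 130.3 FPKM in NP-D@MP libraries and 71.0, 77.9 and 124 FPKM in NP-D@M libraries, the last of these N9. It had a change of 0.86 on the log2 scale without N9 (limma adjusted p = 0.00169) and 0.62 with it (adjusted p = 0.185). For Lsm4 the change was 0.96 on the log2 scale without N9 (limma adjusted p = 0.00929) and 0.64 with it (adjusted p = 0.245). For Srsf2 it was 0.70 on the log2 scale without N9 (limma adjusted p = 0.0347) and 0.49 with it (adjusted p = 0.266). Snrpd1 was lower by a change of -0.35 on the log2 scale without N9 (limma adjusted p = 0.0498) and -0.15 with it (adjusted p = 0.622). The median log2 change without N9 was 0.17 over the members and 0.07 over all genes. When N7 and N8 were both left out, it was 0.03 and 0.01. In that fit N9 alone stood for NP-D@M, so no call is drawn from it.

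**Figure D5:**
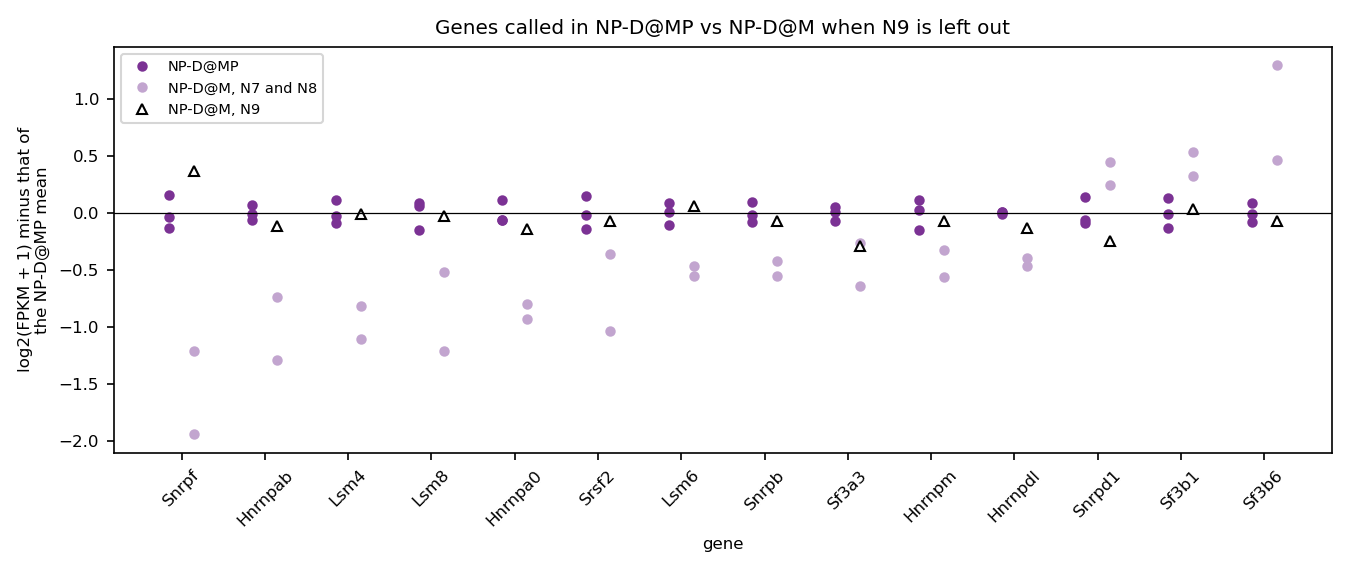
The 14 members called between NP-D@MP and NP-D@M cells when N9 is left out, as log2(FPKM + 1) minus the NP-D@MP mean (vertical axis), with NP-D@MP libraries as dark points, N7 and N8 as light points and N9 as triangles. N7 and N8 lie to one side of the NP-D@MP libraries for each gene, and N9 lies among or near the NP-D@MP libraries for most of them.

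The carrier without D was set against buffer. Between NP@M and PBS cells limma called 0 members, where 0% of all genes rose and 0.0099% fell; 11 members had an unadjusted p under 0.05, the smallest adjusted p was 0.448, and limma voom called 0. Snrpf had 4.47, 3.76 and 3.96 FPKM in NP@M libraries and 12.6, 8.64 and 6.64 FPKM in PBS libraries, a log2 change of -0.98 (SE 0.44, limma adjusted p = 0.458). Snrpb averaged 64.3 ± 5.07 FPKM in NP@M cells and 82.4 ± 7.38 FPKM in PBS cells (SD, n = 3), with a log2 change of -0.35 (limma adjusted p = 0.448). Sf3b1 averaged 17.7 ± 1.10 FPKM in NP@M cells and 14.0 ± 1.21 FPKM in PBS cells, with a log2 change of 0.32 (limma adjusted p = 0.450). All 8 LSm ring genes had a log2 change below 0, with a median of -0.28, beside a median of -0.01 for all genes. None of these passed the test. The family medians lay between -0.21 and 0.13 on the log2 scale.

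The rest of the splicing machinery was described from 9 lists of 173 genes that are no members, of which 159 were tested. Between NP-D@M and NP@M cells 41 rose and 93 fell, with a median log2 change of -0.64 beside -0.19 for all genes, where 41.8% and 47.7% of all genes rose and fell. In the scaling to table reads 11 rose and 145 fell, where 17.5% and 70.5% of all genes did. The counts of each list below stand beside these same shares. Kinases that phosphorylate SR proteins fell in 9 of 10 cases and rose in none, with a median of -1.45, and 10 of 10 fell in the scaling to table reads. Clk1, a nuclear SR protein kinase, was at 0.173 ± 0.170 FPKM with NP-D@M against 5.73 ± 0.702 FPKM with NP@M (mean ± SD, n = 3) and fell by 2.53, and Cdk13 fell by 1.46. SR-related proteins fell in 14 of 20 cases and rose in 3, and in the scaling to table reads 19 fell and none rose. Tra2b, an SR-like exon inclusion factor, fell by 2.28 (1.39 ± 0.325 FPKM with NP-D@M against 10.5 ± 1.02 FPKM with NP@M), and Scaf8 by 1.61, while Srrt and Luc7l2 rose by 1.88 and 0.68, with 0.12 and -1.04 in the scaling to table reads.

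Proteins that recognise the 3′ splice site and branch point fell in 9 of 13 cases and rose in 2, and in the scaling to table reads all 13 fell. Puf60, a partner of U2AF at the polypyrimidine tract, fell by 2.93 (1.64 ± 0.106 FPKM with NP-D@M against 19.1 ± 0.816 FPKM with NP@M), and U2surp by 1.57. The large U2AF subunit gene U2af2 rose by 1.39 (66.3 ± 8.92 FPKM with NP-D@M against 24.5 ± 0.940 FPKM with NP@M) and Dnajc8 by 0.88, but both turned in the scaling to table reads, to -0.40 and -0.90. Core and U5, U4 and U6 proteins rose in 13 of 35 cases and fell in 19, near the shares of all genes, and in the scaling to table reads 3 rose and 31 fell. Eftud2, the GTPase of the U5 snRNP, rose by 2.81 (63.8 ± 3.30 FPKM with NP-D@M against 8.27 ± 0.784 FPKM with NP@M) and Ctnnbl1 by 2.33, while Aqr, an intron-binding helicase, and Prpf4 fell by 1.63 and 1.88. Helicases rose in 5 of 10 cases and fell in 2, and in the scaling to table reads 2 rose and 8 fell. Ddx41 and Ddx39 rose by 3.56 and 2.48, and Dhx8, which releases spliced mRNA, and Ddx5 fell by 1.96 and 1.88.

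Genes for snRNP assembly and import rose in 6 of 19 cases and fell in 10, against 2 and 17 in the scaling to table reads. Strap, of the SMN complex that loads Sm rings, rose by 2.79 (334 ± 21.9 FPKM with NP-D@M against 47.7 ± 3.81 FPKM with NP@M) and Tnpo2, an import receptor, by 2.45. Ddx20, another SMN complex member, fell by 2.97 (0.140 ± 0.0384 FPKM with NP-D@M against 7.91 ± 0.511 FPKM with NP@M), and Phax, the export adaptor of snRNAs, by 2.73. Members of the same complex thus moved in opposite directions. Minor spliceosome proteins rose in 3 of 10 cases and fell in 6, against 1 and 8 in the scaling to table reads, with Snrnp25 rising by 3.78 (91.9 ± 20.9 FPKM with NP-D@M against 5.72 ± 1.27 FPKM with NP@M) and Zmat5 by 1.57, and with Zrsr1 and Snrnp48 falling by 1.29 and 1.44. Exon junction complex genes rose in 1 of 7 cases and fell in 3, while all 7 fell in the scaling to table reads. Magoh rose by 0.64, with -1.12 in the scaling to table reads, and Eif4a3, the helicase at its centre, and Casc3 fell by 2.06 and 1.07. Other splicing regulators rose in 8 of 35 cases and fell in 21, against 3 and 32 in the scaling to table reads. Rbm3, a cold-inducible RNA-binding protein, and Raly rose by 2.82 and 2.68, and Rbm5 and Rbm25 fell by 1.93 and 1.38. The limma adjusted p of these named genes was at most 0.00993. Between NP-D@MP and NP-D@M cells, and between NP@M and PBS cells, none of the 159 was called.

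Members that rose in the authors' scaling encoded shorter proteins, by the median, than members that fell. Of these rises 9 held under all 4 scalings, as did 28 of the falls, so the grouping depends on the scaling. In the main transcripts of GENCODE M21 the median coding length was 670.5 bases for the 24 that rose and 1260.0 bases for the 29 that fell between NP-D@M and NP@M cells, beside 1350.0 bases over 8892 coding genes. The median 3′ untranslated region was 495.5 bases for those that rose and 1147 bases for those that fell. Across the 59 members the log2 change and coding length had a Spearman correlation of -0.37, and across the 8892 coding genes -0.25. For summed exon length the values were -0.29 and -0.22, for the 3′ untranslated region -0.30 and -0.25, for the number of introns -0.19 and -0.01, and for GC content 0.13 and 0.20. These are descriptions across genes that share the same libraries, and genes are not independent replicates. Between families the median coding length was 309 bases for LSm, 378 for Snrp, 729 for SR, 1304 for hnRNP and 1503 for SF3 genes, so family and length go together. The median number of transcripts annotated for nonsense-mediated decay per gene was 0 for those that rose and 1 for those that fell, beside 0 over the 8892 coding genes. Its Spearman correlation with the log2 change was -0.25 across the members and 0.03 across the coding genes. SR genes had a median of 1.5, so this number too goes together with family.

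Counting limits how firmly some members can be read. More than 20% of the 50-base words of the exons recur in other genes for Snrpf (89.5%), Hnrnpf (61.9%), Sf3b4 (45.3%), Srsf4 (39.5%), Hnrnpa1 (28.2%), Hnrnpa3 (27.1%), Hnrnpab (23.8%), Lsm5 (21%), Srsf2 (20.7%) and Snrpa (20.2%). For Hnrnpf, Sf3b4, Hnrnpa1, Hnrnpa3 and Lsm5 the other gene is mainly a processed pseudogene, and for Snrpf, Srsf4, Hnrnpab, Srsf2 and Snrpa mainly a neighbour on the opposite strand. Reads from such a pair cannot be told apart without knowing how the authors counted.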

How the data were processed

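RNA sequencing measured gene expression in 12 CT26 libraries in 4 groups of 3, grouped by the treatment in the sample titles. The values the authors deposited are FPKM, for 12584 genes with their coordinates and lengths. Per the submitters' processing notes, Bowtie 0.12.2 and the mm8 build were used, but identifiers and coordinates in the table were those of GRCm38: 12571 identifiers were found in GENCODE M21, and GRCm38 coordinates are printed as the table has them. Neither the labels nor the table name the gene counter, the strand setting or the source of the library sizes. A TruSeq kit was used on total RNA, per the labels' protocols, whose text also names retinas, in conflict with the cell line.

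Whole reads and library sizes were recovered from FPKM times gene length, with 100% of values whole to a relative tolerance of 1e-06; 12.8 to 15.7 M reads (mega-reads) per library set the precision. TMM factors of those reads were computed with a script of the present work: the authors' library size over the reads in the table, divided by that factor, was 0.911 to 1.14. The test was done in R 4.3.3 with limma 3.58.1 on log2(FPKM + 1) over 10101 genes with at least 1 FPKM in at least 3 libraries, all 12 libraries in a single fit, with Benjamini-Hochberg adjustment over all genes and calls at an adjusted p under 0.05. This scale understates the change of low genes; folds are ratios of mean FPKM. The limma step was tested on simulated reads for NP@M against PBS, drawn from the PBS means with most genes left unchanged. In the comparisons with D most genes were called and library sizes differed, so that simulation does not test them. Between libraries of a group the chi-square of the reads was 7.10 to 62.6 per degree of freedom, above sampling noise, so no library was taken for a duplicate. Promoters are from RefSeq (GRCm38.p6), with 51 of 59 members matched. For 43 of the 51, a short stretch after the start occurred in a GENCODE transcript of the same gene. All 51 were kept in the motif counts.

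The members, gene lists and rule for named genes were chosen with earlier results of these data known. The rule names 20 members by name, of which 19 were in the table, and for each comparison the 6 largest rises and falls among called members without overlap and whose higher group averaged at least 5 FPKM. For each list of other splicing genes it names the 2 called genes with the smallest adjusted p in each direction between NP-D@M and NP@M. The alternatives were a common median ratio, scaling to table reads, quantile normalization, a pseudocount of 0.1, a filter on a mean of at least 5 FPKM, no filter, trend and robust settings, limma voom on the recovered reads, a fit on 6 libraries, an adjusted p under 0.01, a log2 change of at least 1 and leaving out each library. Leaving out both N7 and N8 was added after seeing the data.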

Additional observations from a re-analysis of the deposited data

How the results depend on the processing

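In the scaling to table reads, 9 members were called higher and 45 lower between NP-D@M and NP@M cells, 11 and 45 between NP-D@MP and NP@M cells, and 8 and 44 between NP-D@MP and PBS cells, because that scaling moved the median change of all genes by -1.26, -1.34 and -1.29 on the log2 scale. Quantile normalization called 13, 14 and 13 members higher and 36, 36 and 38 lower in the same comparisons, where 37.7%, 38% and 38% of all genes were higher and 41.8%, 43.4% and 42.3% lower. A log2 change of at least 1 left 16, 20 and 16 members higher and 20, 19 and 19 lower in these comparisons, since fewer genes can pass. Of all genes 30.1%, 31.8% and 31.5% were then higher and 28.4%, 28.3% and 27.7% lower. Leaving out single libraries gave 0 to 11 members called higher and 0 to 3 called lower between NP-D@MP and NP-D@M cells. The upper values were without N9, where 9.59% and 2.87% of all genes were called.

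In the order NP-D@M vs NP@M, NP-D@MP vs NP@M and NP-D@MP vs PBS, reversed log2 changes in the scaling to table reads were -0.29, -0.23 and -0.11 for Hnrnpa2b1, -0.47, -0.55 and -0.46 for Hnrnpc, and -1.44, -1.28 and -1.49 for Snrpa. Under quantile normalization they were -0.65, -0.66 and -0.48 for Hnrnpa2b1, -0.57, -0.72 and -0.58 for Hnrnpc, -0.76, -0.65 and -0.89 for Snrpa, and -0.42, -0.22 and -0.58 for Snrpb. Snrpb was at -0.0036 between NP-D@MP and PBS cells in the scaling to table reads. Hnrnpa1 was at -1.73 and -2.10 between NP-D@MP and NP@M cells under these scalings. The cause was not tested. Over the 27 named members, 2276 of 2339 alternative values kept the side of the threshold without a reversal, 26 lost and 13 gained the call, and 24 reversed. A change of sign counted as a reversal only where the main or the alternative value was called. The 2339 include comparisons in which the main fit called no member. The settings of an adjusted p under 0.01 and a log2 change of at least 1 reuse the main fit and could not reverse a value. No paired analysis was possible because the titles number the libraries in a single series and no number is shared between groups.

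Depth limits Lsm10 most, which rests on 0 or 1 read per library with D. For a gene of 1 kb, 1 read gave 0.119 to 0.140 FPKM with D and 0.0322 to 0.0355 FPKM without it.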
